A study of Mus musculus with 16 samples.

Results

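The genes Cd34, Cd200, Lrig1, Plet1, Cd44 and Ly6a encode cell surface proteins with which pools of hair follicle and epidermal stem cells are told apart by antibody. They were chosen by name, as surface markers in use for such separations, with earlier results of these data known. They make up 6 of the 32989 gene identifiers in the count table. All 6 were found there and all 6 reached the count needed for a test, together with 19049 genes in all. The libraries came from hair follicle stem cell (HFSC) organoids, three-dimensional cultures of C57BL/6J mouse epidermal cells in which follicle stem cells and their progenitors are kept side by side. Organoids from 4 mice were grown for 2 weeks and exposed for 72 h to the acetylated polyamine N1-acetylspermidine (N1-AcSpd) or kept without it. The cells were then sorted on integrin α6 and CD34 into an α6+CD34- and an α6+CD34+ fraction. This gave 4 groups of 4 libraries, the untreated CD34-, N1-AcSpd CD34-, untreated CD34+ and N1-AcSpd CD34+ cells, and each mouse is in all 4 groups. All groups share the strain, which carries no transgene, and the organoid medium. By the study's methods the mice were of both sexes and in the resting phase of the hair cycle, either around weaning or as young adults. Which of these ages each mouse had is not given in the sources used here.

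The hair follicle keeps several stem cell pools along its length. The bulge, the lowest permanent segment, holds quiescent cells that carry CD34 in the mouse and CD200 on their surface, while cells of the isthmus and junctional zone above it are known for LRIG1 and PLET1. CD44 and LY6A (Sca-1) are broad keratinocyte surface proteins. LY6A is high in the epidermis and the upper follicle and low in the bulge, which is why its absence has served to enrich bulge cells.

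Summed over genes, each library held between 15480075 and 29074855 unique molecular identifiers (UMIs, tags that mark single captured transcript molecules). Some overlapping genes below had near-equal counts, so a molecule may be counted for more than 1 gene. Between 22142 and 24247 genes had at least 1 UMI. Values below are CPM (a gene's count relative to the UMI total of its library), scaled by edgeR's TMM factors. The fitted fold changes and adjusted p-values are from edgeR's quasi-likelihood test with Benjamini-Hochberg adjustment over all genes tested, and a call means an adjusted p under 0.05. The 6 keratinocyte markers (Krt5, Krt14, Trp63, Dsp, Perp, Sfn) summed to 7449 to 9544 CPM per library. Of the markers of other cells a skin preparation can hold, the 8 fibroblast genes summed to 0.742 to 2.47 CPM in CD34- and 0.245 to 0.877 CPM in CD34+ libraries, and the 6 immune genes with a row to at most 2.08 CPM. Of 8 endothelial genes 5 had a row, with Cdh5, Emcn and Cldn5 absent. Pecam1 alone stood at up to 2053 CPM, while Kdr, Plvap, Tie1 and Tek together reached at most 1.18 CPM. Cd34, Cd200, Cd44 and Ly6a are also made by endothelial, fibroblast or immune cells, whose other markers were thus near 0 apart from Pecam1. The melanocyte genes summed to 28 to 36.1 CPM, mostly Mitf and Pmel, which overlap other expressed genes.

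The 250 bases before the start of each gene are given for the 3 members that differed most between the fractions, Cd34 and Cd200 on the CD34+ side and Plet1 on the CD34- side. They are RefSeq promoters of build GRCm38.p6, written 5′ to 3′ on the gene's strand, and 5 of the 6 members were found in that table, all but Ly6a. Capitals mark every match, on either strand, to one of these motifs. The first is TATAAA, known as the TATA box. The next is GGGCGG, which is called the GC box. Then follow the core of RUNX sites, TGTGGT, the core of homeodomain sites, TAATTA, and the AP-1 site, TGANTCA.
Cd34, chr1:194938571-194938820, + strand: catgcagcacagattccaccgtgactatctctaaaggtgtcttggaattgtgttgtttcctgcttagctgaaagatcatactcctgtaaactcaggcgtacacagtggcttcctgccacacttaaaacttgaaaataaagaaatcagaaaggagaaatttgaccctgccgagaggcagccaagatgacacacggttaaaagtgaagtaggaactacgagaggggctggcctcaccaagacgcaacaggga
Cd200, chr16:45409054-45409303, - strand: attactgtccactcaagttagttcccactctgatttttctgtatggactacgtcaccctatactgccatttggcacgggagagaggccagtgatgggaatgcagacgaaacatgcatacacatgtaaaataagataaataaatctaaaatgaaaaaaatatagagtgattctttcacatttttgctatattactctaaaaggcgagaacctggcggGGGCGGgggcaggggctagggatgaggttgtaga
Plet1, chr9:50494275-50494524, + strand: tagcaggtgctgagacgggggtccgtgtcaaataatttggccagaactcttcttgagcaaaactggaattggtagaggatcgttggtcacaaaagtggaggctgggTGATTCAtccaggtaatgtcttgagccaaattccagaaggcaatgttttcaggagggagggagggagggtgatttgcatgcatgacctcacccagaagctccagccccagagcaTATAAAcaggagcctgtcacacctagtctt
Plet1 held a TATA box 30 bases before its start and a match to TGANTCA, in the form TGATTCA, 144 bases before it. In the same window 12.4% of the 32851 promoters in the table held TATAAA and 6.75% held TGANTCA. Cd200 held 1 GC box and Lrig1, not printed, held 2, a match found in 32.7% of all promoters. The windows of Cd34 and of Cd44 held none of these letters. TGTGGT was in 14.0% and TAATTA in 4.84% of all promoters and in none of the 5 windows searched.

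In untreated organoids all 6 genes differed between the fractions, Cd34, Cd200 and Lrig1 being higher and Plet1, Cd44 and Ly6a lower in CD34+ cells. The difference was largest for Cd34, the gene of the sort, followed by Cd200 and Plet1, and was less than 2-fold for Lrig1, Cd44 and Ly6a. Of all genes 32.1% were called in this comparison, 16.1% higher and 16.1% lower in CD34+ cells, so a call between the fractions was common. When libraries were scaled by their totals the median gene moved up by 0.11 on the log2 scale and 73.4% of the calls, not 50%, were on the higher side, so changes of that size depend on the scaling.

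**Figure D1:**
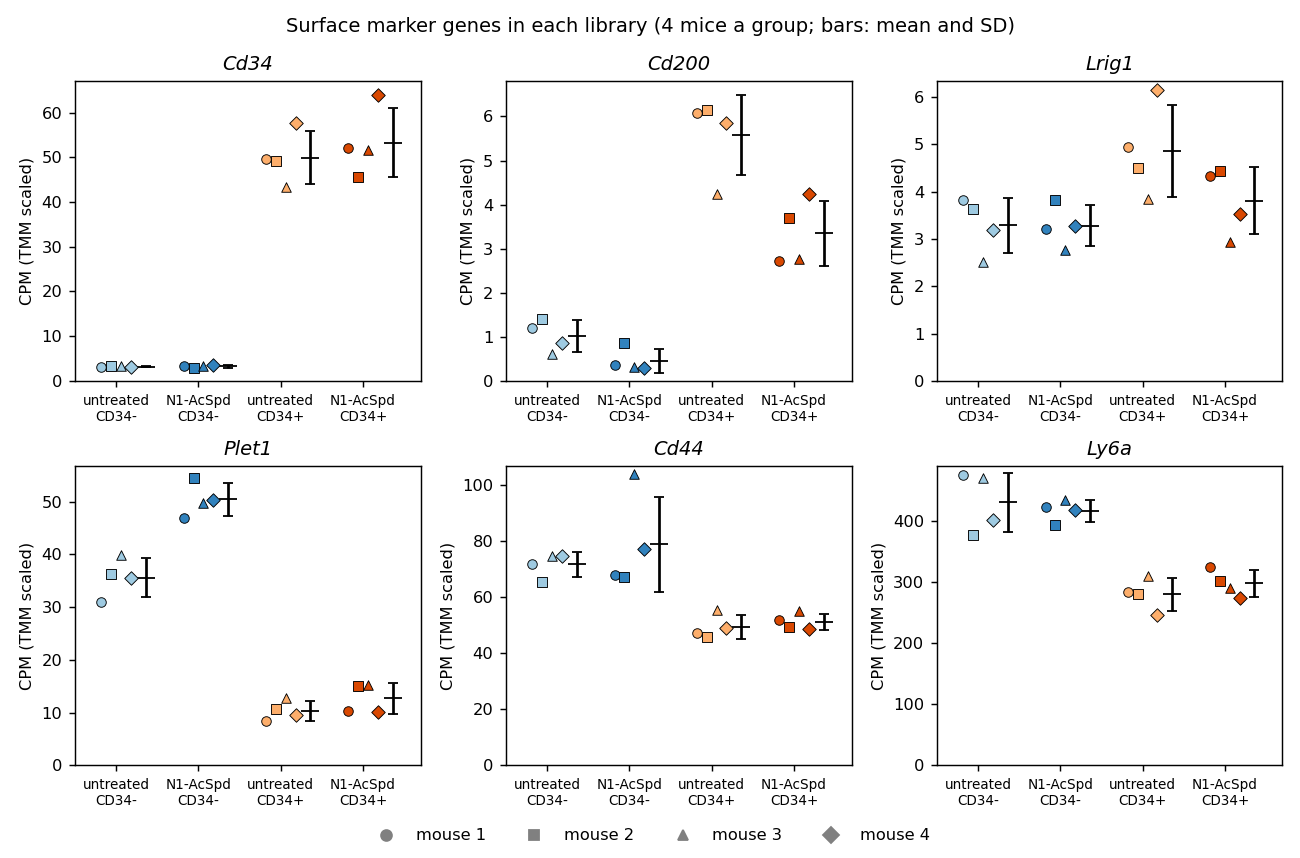
Level of each surface marker gene in every library, in CPM, for the 4 groups of 4 mice; symbols are mice and the bar beside each group is the mean with its SD. The 4 untreated CD34+ libraries lie above all untreated CD34- libraries for Cd34, Cd200 and Lrig1 and below them for Plet1, Cd44 and Ly6a.

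Cd34 (ENSMUSG00000016494, chr1:194938819-194961279, + strand of GRCm38) encodes a sialomucin that is the classical marker of the mouse bulge. Untreated CD34- cells of mice 1 to 4 held 3.05, 3.26, 3.25 and 3.20 CPM. The untreated CD34+ cells held 49.6, 49.1, 43.4 and 57.7 CPM. As the protein was the sort marker, this 15.6-fold difference (log2 fold change 3.97 ± 0.12, SE) checks the labels of the fractions and is no finding. All 8 CD34+ libraries were above all 8 CD34- libraries. Under N1-AcSpd the CD34- cells held 3.22, 2.87, 3.31 and 3.65 CPM and the CD34+ cells 52.0, 45.5, 51.6 and 64.0 CPM. Cd34 did not pass the test for N1-AcSpd within either fraction, at a log2 fold change of 0.03 (95% interval -0.20 to 0.26) in CD34- and 0.09 (-0.13 to 0.31) in CD34+ cells. Within the sorted CD34+ cells the level thus lay within 1.24-fold of the untreated one by the upper bound of that interval. Treated and untreated cells were gated alike on CD34 protein, so the sort itself limits how far Cd34 can move within or between the fractions. The intervals therefore do not measure the effect of N1-AcSpd on Cd34 in the unsorted culture.

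Cd34 overlaps Gm16897, an antisense gene, by 5521 bases. Gm16897 held 8166 UMIs against 8429 for Cd34, and between 90.1% and 100% of the Cd34 count in each library. Whether the counting used strand is not given in the sources used here, and without strand the reads of such a pair cannot be told apart. Podxl and Podxl2, the other members of the CD34 family, had rows in the table but too few UMIs for a test.

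Cd200 (ENSMUSG00000022661, chr16:45382135-45409053, - strand) encodes a membrane glycoprotein of bulge cells that signals to inhibitory receptors on myeloid cells. It was 5.50-fold higher in untreated CD34+ than in CD34- cells (log2 fold change 2.46 ± 0.33, SE; adjusted p = 6.96e-05, edgeR). In untreated CD34- cells mice 1 to 4 had 1.2, 1.4, 0.606 and 0.857 CPM. The untreated CD34+ libraries held 6.08, 6.14, 4.23 and 5.85 CPM. The groups did not overlap, and the ratio between the fractions of 1 mouse ran from 4.37 in mouse 2 to 6.97 in mouse 3. Under N1-AcSpd the CD34- libraries held 0.371, 0.851, 0.304 and 0.287 CPM, resting on 7 to 24 UMIs each. The N1-AcSpd CD34+ libraries held 2.71, 3.7, 2.76 and 4.23 CPM, from 45 to 73 UMIs. The fractions were again apart, by 7.23-fold (log2 fold change 2.85 ± 0.34, SE; adjusted p = 2.31e-05, edgeR). In bulk samples fewer cells carrying a transcript and less of it per cell cannot be told apart, here and for every gene below. The 4 CD200 receptor genes had no row in the table, and no gene with a row there overlaps Cd200.

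Lrig1 (ENSMUSG00000030029, chr6:94604529-94700158, - strand) encodes a leucine-rich repeat protein that restrains signalling by EGF receptor family members and MET, and marks junctional zone stem cells. Untreated CD34- cells held 3.83, 3.64, 2.51 and 3.20 CPM and untreated CD34+ cells 4.95, 4.50, 3.85 and 6.16 CPM. The lowest CD34+ library thus lay just above the highest CD34- library, and Lrig1 was higher in CD34+ cells in 4 of 4 mice. The fitted difference was 1.48-fold (log2 fold change 0.56 ± 0.18, SE; adjusted p = 0.0246, edgeR), from 57 to 120 UMIs a library. This call was not stable. It was lost with only the untreated groups in the fit (adjusted p = 0.0525, edgeR). Leaving out mouse 3 (adjusted p = 0.0774, edgeR) or mouse 4 (0.0541) from the untreated CD34- group, or mouse 4 (0.096) from the untreated CD34+ group, also ended it. So did dropping mouse 1 (adjusted p = 0.0672, edgeR), mouse 2 (0.0512) or mouse 4 (0.195) from every group. In N1-AcSpd organoids the CD34- cells held 3.22, 3.83, 2.77 and 3.28 CPM and the CD34+ cells 4.34, 4.44, 2.94 and 3.52 CPM. These groups overlapped, and Lrig1 did not pass the test there (log2 fold change 0.22, 95% interval -0.16 to 0.60; adjusted p = 0.39, edgeR). The change of the fraction difference with treatment was -0.34 (-0.88 to 0.19), which did not pass its own test, so the 2 results are not shown to differ.

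Lrig1 lies tail to tail with Slc25a26, a mitochondrial carrier of S-adenosylmethionine, and their 3′ ends share 144 bases. Slc25a26 held 1422 UMIs against 1277 for Lrig1, and between 85.4% and 145% of the Lrig1 count in a library. Its own difference between the untreated fractions was 0.24 on the log2 scale and did not pass the test (adjusted p = 0.272, edgeR). The libraries are 3′ end libraries, so UMIs in the shared stretch may be counted for either gene, and how many were was not tested.

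**Figure D2:**
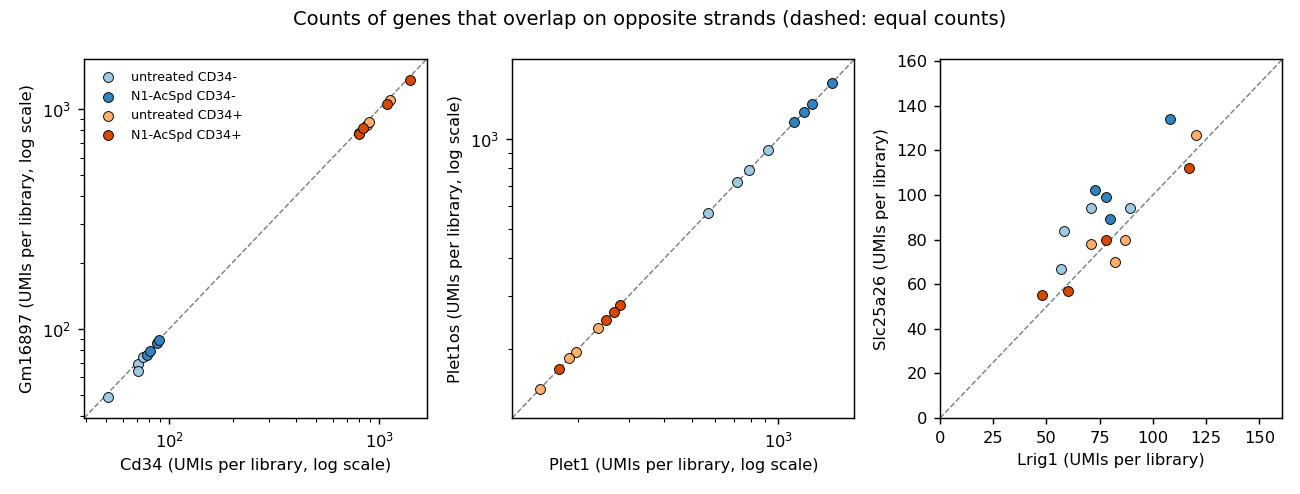
UMIs per library of Cd34, Plet1 and Lrig1 (x axes) against those of the gene that overlaps each on the other strand (y axes); axes are logarithmic for Cd34 and Plet1 and linear for Lrig1, and the dashed line is equality. Plet1 and Plet1os fall on the line in nearly every library, Cd34 and Gm16897 lie close to it, and Slc25a26 runs from 85.4% to 145% of Lrig1.

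Plet1 (ENSMUSG00000032068, chr9:50494525-50505482, + strand) encodes a GPI-anchored protein whose epitope, MTS24, marks cells of the isthmus. It was lower in CD34+ cells, by 1.78 on the log2 scale in untreated organoids (SE 0.16; adjusted p = 1.75e-06, edgeR), to 0.29 of the CD34- level. Untreated CD34- cells held 30.9, 36.2, 39.8 and 35.6 CPM and untreated CD34+ cells 8.36, 10.7, 12.7 and 9.55 CPM. Every CD34+ library was below every CD34- library. Under N1-AcSpd the CD34- cells held 46.9, 54.5, 49.7 and 50.3 CPM and the CD34+ cells 10.4, 15.1, 15.3 and 10.1 CPM. The difference between these was -1.98 on the log2 scale (SE 0.16; adjusted p = 7.71e-07, edgeR). Plet1 lies within its antisense gene Plet1os, sharing 10958 bases. Plet1os held 9936 UMIs against 9935 for Plet1, with equal counts in 15 of 16 libraries, so the values given here belong to the pair and not to Plet1 alone.

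Cd44 (ENSMUSG00000005087, chr2:102811141-102901665, - strand) encodes the main hyaluronan receptor of keratinocytes. Untreated CD34- cells held 71.9, 65.3, 74.6 and 74.8 CPM and untreated CD34+ cells 47.3, 45.9, 55.4 and 49.1 CPM. The groups did not overlap, and the CD34+ level was 0.69 of the CD34- level (log2 fold change -0.54 ± 0.12, SE; adjusted p = 0.00284, edgeR). The N1-AcSpd CD34- cells held 67.9, 67.2, 104 and 77.1 CPM, mouse 3 being well above the others. The N1-AcSpd CD34+ cells held 52.0, 49.4, 55.1 and 48.8 CPM, again all lower (log2 fold change -0.62; adjusted p = 8.70e-04, edgeR). Counts by gene do not separate the CD44 splice forms.

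Ly6a (ENSMUSG00000075602, chr15:74994877-74998031, - strand) encodes Sca-1, a GPI-anchored protein of the LY6 family. Untreated CD34- cells held 475, 378, 470 and 402 CPM and untreated CD34+ cells 284, 281, 311 and 246 CPM. No CD34+ library reached the lowest CD34- library, and the CD34+ level was 0.65 of the CD34- level (log2 fold change -0.62 ± 0.08, SE; adjusted p = 7.35e-05, edgeR). With N1-AcSpd the CD34- cells held 423, 393, 435 and 418 CPM and the CD34+ cells 325, 302, 290 and 274 CPM. The CD34+ libraries were again the lower ones (log2 fold change -0.49; adjusted p = 4.40e-04, edgeR). Ly6a has close paralogs, and how the counting shared reads among them was not tested.

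In N1-AcSpd organoids 5 of the 6 genes were called between the fractions, 2 higher and 3 lower in CD34+ cells, all but Lrig1. The higher ones were Cd200 and Cd34, and the difference of Cd34 was set by the sort and is no finding. Over all genes 33.3% were called in that comparison, 16.5% higher and 16.8% lower. With library totals 71.6% of those calls, not 49.6%, were on the higher side. The differences under N1-AcSpd and in untreated organoids ran the same way for each of the 6 genes. The change of the fraction difference with treatment did not pass the test for any of them, and of all genes 0% were called for such a change by edgeR (799 at an unadjusted p under 0.05), against 72 genes by DESeq2. The intervals of that change were -0.26 to 0.38 for Cd34, -0.58 to 1.37 for Cd200, -0.66 to 0.26 for Plet1, -0.44 to 0.27 for Cd44 and -0.12 to 0.39 for Ly6a on the log2 scale, so that a 2-fold change is within the interval for Cd200 alone.

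**Figure D3:**
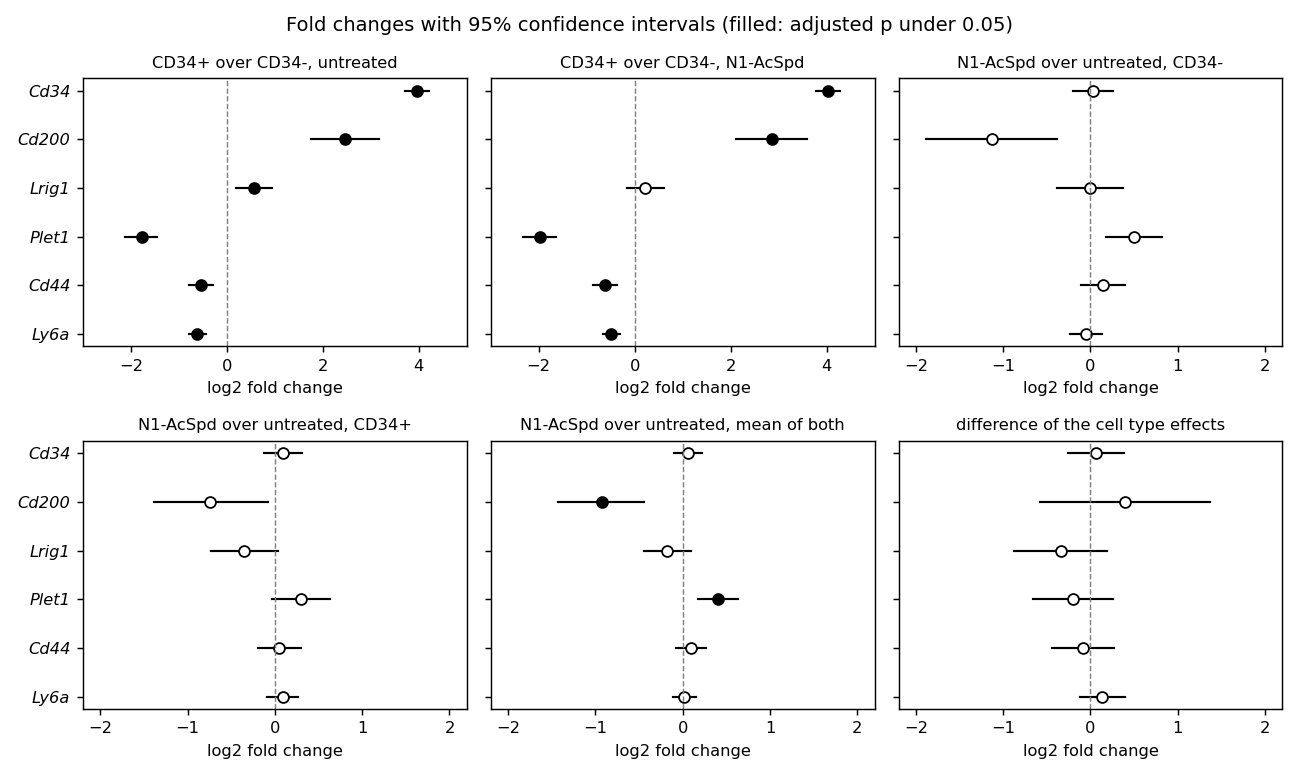
Fitted log2 fold change of each gene with its 95% confidence interval (x axes) in the 6 comparisons; filled points passed an adjusted p of 0.05. All 6 points are filled for the untreated fractions, and for N1-AcSpd over untreated only Cd200 and Plet1 in the mean of both fractions are.

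The treatment comparison asks whether 72 h of N1-AcSpd shifted the levels of these markers within a sorted fraction. Cd200 was lower and Plet1 higher under N1-AcSpd when the effect was averaged over both fractions, and neither passed the test within 1 fraction. Cd34, Lrig1, Cd44 and Ly6a passed no treatment test, and for Cd34 the sort on its protein limited what such a test could show. In CD34- cells 0 of the 6 genes were called, where 0.614% of all genes were called, and 2 had an unadjusted p under 0.05, as 13.6% of all genes did. In CD34+ cells 0 of the 6 were called, where 0.325% of all genes were called, and 1 had an unadjusted p under 0.05, as 13.2% of all genes did. Averaged over both fractions 2 of the 6 were called, where 4.86% of all genes were called, 2.7% higher and 2.16% lower. In CD34+ cells the calls over all genes were 58.1% on the higher side with TMM and 70.7% with DESeq2 size factors.

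Cd200 was lower under N1-AcSpd in both fractions of 4 of 4 mice. In CD34- cells the ratio of N1-AcSpd to untreated was 0.31, 0.61, 0.50 and 0.33 in mice 1 to 4. In CD34+ cells it was 0.45, 0.60, 0.65 and 0.72. The fitted log2 change was -1.13 ± 0.35 (SE; adjusted p = 0.156, edgeR) in CD34- cells, where treated and untreated libraries overlapped through mouse 2. It was -0.74 ± 0.30 (adjusted p = 0.323, edgeR) in CD34+ cells, where the highest treated library lay just under the lowest untreated one, both 4.23 CPM after rounding. Averaged over the fractions Cd200 fell to 0.52 of its untreated level (log2 fold change -0.93, 95% interval -1.43 to -0.44; adjusted p = 0.0353, edgeR). The 2 fractions of a mouse under the same treatment come from 1 culture. The fit treats them as independent libraries, here and in every average over the fractions. A mouse block does not model that shared culture. With this block the call held (-0.95; adjusted p = 0.0119, edgeR). It was lost with no filter on low counts (adjusted p = 0.0583) and in 14 of 20 fits that left out 1 library or 1 mouse, with log2 changes of -1.19 to -0.77 and adjusted p-values up to 0.233, all by edgeR. The 6 fits that kept it dropped mouse 3 or mouse 4 from untreated CD34- cells, mouse 3 from untreated CD34+ cells, mouse 2 from N1-AcSpd CD34- cells, mouse 4 from N1-AcSpd CD34+ cells, or mouse 2 from every group.

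Plet1, counted with Plet1os, was higher under N1-AcSpd in both fractions of 4 of 4 mice. The ratio of N1-AcSpd to untreated was 1.52, 1.51, 1.25 and 1.41 in CD34- cells of mice 1 to 4. In CD34+ cells it was 1.25, 1.41, 1.21 and 1.06. All 4 treated CD34- libraries lay above all 4 untreated ones, while the CD34+ groups overlapped. In CD34- cells the log2 change was 0.50 ± 0.15 (SE; adjusted p = 0.15, edgeR), and it was called with the mouse as a block (0.51; adjusted p = 0.0284, edgeR) and by DESeq2 (0.50; adjusted p = 0.019). In CD34+ cells it was 0.30 ± 0.15 (adjusted p = 0.424, edgeR). Averaged over the fractions Plet1 rose 1.32-fold (log2 fold change 0.40, 95% interval 0.17 to 0.63; adjusted p = 0.0482, edgeR). This call was lost with no filter on low counts (adjusted p = 0.0867), with libraries thinned to the smallest of them (0.0604), and in 17 of 20 fits that left out 1 library or 1 mouse, with log2 changes of 0.35 to 0.46 and adjusted p-values up to 0.225, all by edgeR. The 3 fits that kept it dropped mouse 3 from untreated CD34+ cells, or mouse 1 or mouse 4 from N1-AcSpd CD34+ cells.

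**Figure D4:**
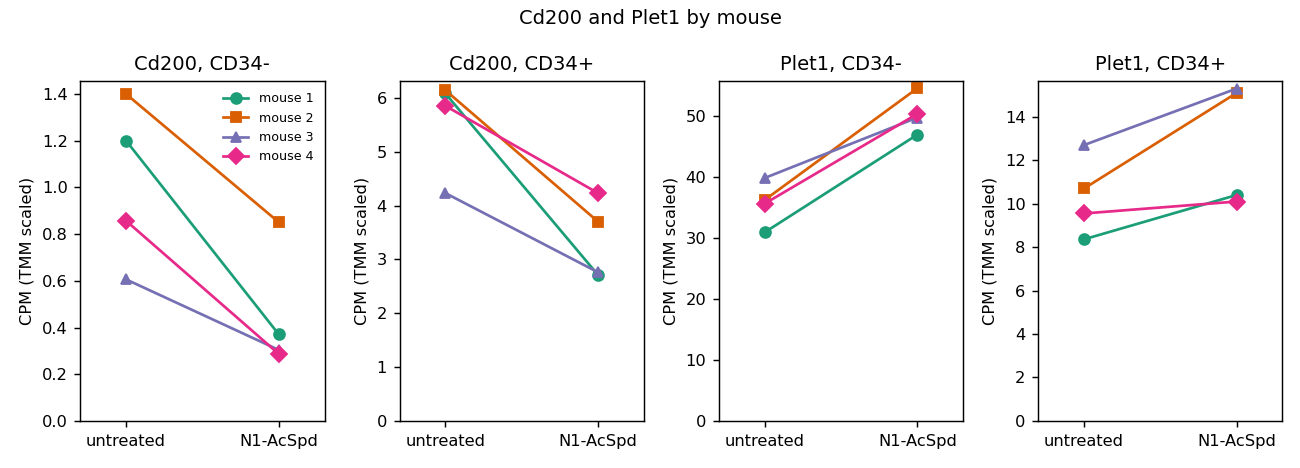
Cd200 and Plet1 in CPM (y axes) in untreated and N1-AcSpd libraries of each mouse, by fraction; each line joins the 2 libraries of 1 mouse. Every line runs down for Cd200 and up for Plet1, with Plet1 in CD34+ cells of mouse 4 nearly level at 9.55 and 10.1 CPM.

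Of the genes that passed no treatment test, Lrig1 had the widest interval. Averaged over the fractions the log2 change was 0.06 for Cd34 (95% interval -0.10 to 0.22), 0.10 for Cd44 (-0.08 to 0.27) and 0.02 for Ly6a (-0.11 to 0.15). For Lrig1 it was -0.18 (-0.44 to 0.09). In CD34+ cells Lrig1 was lower in 4 of 4 mice without passing the test (-0.35, -0.73 to 0.03; adjusted p = 0.424, edgeR), and its neighbour Slc25a26 stood at -0.31 there.

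The mitochondrial share of UMIs also differed between the groups, at 0.938% to 1.04% in N1-AcSpd CD34- cells, 1.05% to 1.16% in untreated CD34- cells, 1.23% to 1.28% in N1-AcSpd CD34+ and 1.28% to 1.45% in untreated CD34+ cells. Depth differed with treatment in the CD34- fraction, where the treated libraries held 25202264 to 29074855 UMIs and the untreated ones 16179323 to 24451336. The part of either in the results above was not tested, beyond the thinned fit given beside Plet1, under which Cd200 kept its call (log2 fold change -0.97; adjusted p = 0.0312, edgeR).

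Other genes of the follicle compartments were read from the same fit. Their lists were picked by known role, with earlier results of these data known. Every count between the untreated fractions is to be read beside the 16.1% of all genes called higher and the 16.1% called lower. Of 12 bulge genes 10 were higher and 0 lower in untreated CD34+ cells, with a list median of 1.15 on the log2 scale beside 0.02 for all genes. Krt15, a bulge keratin, was 10.2-fold higher (38.6 ± 3.36 against 393 ± 56.1 CPM, SD, n = 4; adjusted p = 1.84e-08, edgeR). Lhx2, a bulge homeobox factor, was 7.92-fold higher, but averaged only 0.359 CPM in CD34- and 2.91 CPM in CD34+ cells. Cd200 thus lay on the side of the bulge genes, while the side of Cd34 was set by the sort. All 8 suprabasal epidermis genes were lower in CD34+ cells, with a median of -1.58. Krt1, an early differentiation keratin, stood at -2.65 and Grhl3, a transcription factor of barrier formation, at -2.43. Krt1 was sparse, at 1.65 CPM in CD34- and 0.258 CPM in CD34+ cells on average. Of the isthmus and upper follicle genes 3 of 6 could be tested, and Cst6 (-2.48) and Prdm1 (-2.01) were lower while Gata6 (1.36) was higher. Gata6 averaged only 0.254 CPM in CD34- and 0.649 CPM in CD34+ cells. Of 6 inner bulge and companion layer genes tested, Krt6b (-2.31), Krt16 (-1.51) and Krt6a were lower and Timp3 (1.40) was higher. Timp3 lies within Syn3, which had the same number of UMIs to within 1%. Plet1, Cd44 and Ly6a lay on the lower side, with the suprabasal genes, Cst6, Prdm1, Krt6b, Krt16 and Krt6a. Lrig1, whose call was not stable, lay on the higher side, with most bulge genes, Gata6 and Timp3. A shared direction does not place a gene in any of these lists.

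Of the 15 other follicle surface markers 6 were higher and 5 lower in untreated CD34+ cells, with a median of -0.02. Lgr4, an R-spondin receptor, was 2.40-fold and Cd109, a GPI-anchored regulator of TGF-β signalling, 2.00-fold higher. Tfrc, the transferrin receptor, was lower by 0.63 and Cdh1, E-cadherin, by 0.58 on the log2 scale. Itga6, the other gene of the sort, was among the 5 lower ones in cells gated as α6+ in both fractions. Surface markers as a group thus showed no common direction.

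**Figure D5:**
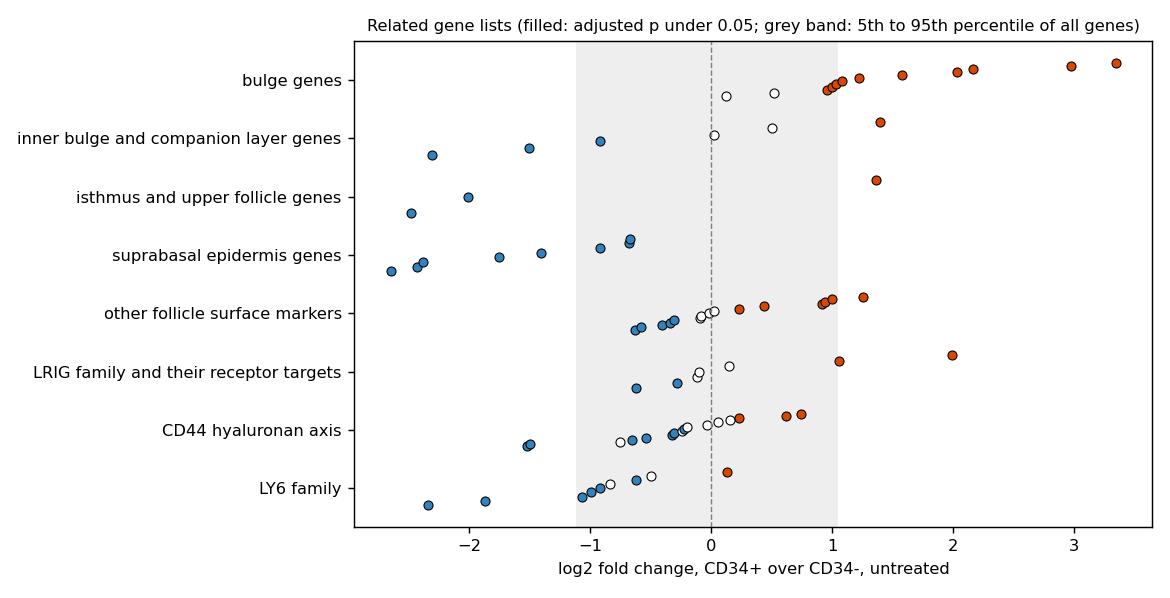
Log2 fold change of each tested gene of 8 related lists, untreated CD34+ over CD34- cells (x axis), by list (y axis); filled points passed an adjusted p of 0.05 and the grey band spans the 5th to 95th percentile of all genes tested, -1.11 to 1.04. Bulge genes lie to the right and suprabasal and most LY6 genes to the left, and the other surface markers lie on both sides.

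Among partners of LRIG1, 2 of 7 tested genes were higher and 2 lower in untreated CD34+ cells. Ret, a receptor tyrosine kinase, was 3.96-fold and Lrig3 2.09-fold higher, whereas Lrig2 (-0.62) and the receptor Erbb3 (-0.28) were lower. With library totals the split was 3 higher and 1 lower, and Erbb3 lost its call (adjusted p = 0.177, edgeR). An antisense gene that overlaps Lrig2, Gm38412, held 72.8% of its number of UMIs. Of 16 tested genes of the CD44 and hyaluronan axis 3 were higher and 7 lower, or 4 and 4 with library totals. The hyaluronidase gene Cemip2 was 1.67-fold and the membrane protease gene Mmp14 1.53-fold higher. Cemip, another hyaluronan-degrading factor, stood at -1.52 and Spp1, which encodes the CD44 ligand osteopontin, at -1.50. Spp1 ranged widely, at 17.4 ± 12.1 CPM in CD34- and 6.17 ± 4.10 CPM in CD34+ cells (SD, n = 4), and it lost its call with library totals (adjusted p = 0.0568, edgeR) and with no filter (0.0653). Cemip averaged only 0.438 CPM in CD34- and 0.15 CPM in CD34+ cells, and also lost its call with no filter (adjusted p = 0.0502, edgeR).

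Of the LY6 family beside Ly6a, 14 of 19 genes had a row and 9 could be tested. In untreated CD34+ cells 6 were lower and 1 higher, with a median of -0.92. Ly6d, a marker of committed epithelial cells, was 5.07-fold lower (617 ± 62.1 against 122 ± 22.1 CPM, SD, n = 4; adjusted p = 7.68e-07, edgeR) and Lypd3, a protein of suprabasal keratinocytes, 3.66-fold lower. Ly6e was 1.10-fold higher, a difference that lost its call with DESeq2 size factors (adjusted p = 0.0548, edgeR). Under N1-AcSpd 3 were lower and 1 higher.

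Few genes of these lists passed a treatment test. In CD34- cells Nfatc1, a factor of bulge quiescence, fell by 0.35 on the log2 scale (adjusted p = 0.048, edgeR) and Hyal2, a hyaluronidase, rose by 0.21 (adjusted p = 0.048, edgeR). Hyal2 overlaps an antisense gene, Gm9917, that held 146% of its UMIs. Both calls were lost with DESeq2 size factors, at adjusted p-values of 0.0517 and 0.0561 (edgeR), and with no filter, thinned libraries or only the CD34- groups in the fit (0.0793 to 0.151). In CD34+ cells Timp3, an inhibitor of metalloproteases, fell by 0.75 (adjusted p = 0.0274, edgeR), a call lost with thinned libraries (-0.74; adjusted p = 0.0639). Over both fractions Timp3 fell by 0.64 (adjusted p = 0.00311, edgeR) and Hyal2 rose by 0.15 (adjusted p = 0.0134, edgeR). These 2 calls held with the other scalings and filters, the mouse block and DESeq2. They also held with thinned libraries (adjusted p = 0.00705 and 0.0283, edgeR). Averaged over both fractions 3 of 12 bulge genes were lower and 0 higher, with Krt15 at -0.37 (adjusted p = 0.0449, edgeR) and Runx1 at -0.31 (adjusted p = 0.00758, edgeR). The third was Nfatc1. The list count fell to 1, Runx1, with library totals, where Krt15 (adjusted p = 0.0532, edgeR) and Nfatc1 (0.0507) were lost, and to 1 with no filter (0.0681 and 0.0732). Nfatc1 was also lost with thinned libraries (0.0716) and by DESeq2 (0.0594). Over both fractions 2.16% of all genes were lower and 2.7% higher. Of 8 suprabasal genes 3 were higher and 0 lower, Ivl, which encodes involucrin, at 0.60 (adjusted p = 0.00504, edgeR), Grhl3 at 0.60 (adjusted p = 0.0184, edgeR) and Sbsn. Sbsn overlaps Tmem147os, which had the same number of UMIs to within 1%, and it lost its call with no filter (adjusted p = 0.0616, edgeR). Of the other surface markers Cd9, a tetraspanin, rose by 0.18 (adjusted p = 0.00556, edgeR), and in the LY6 family Ly6e fell by 0.11 (adjusted p = 0.0364, edgeR), a call lost with DESeq2 size factors (0.0571) and with no filter (0.0964). Of the keratinocyte markers Dsp stood at -0.13 over both fractions (adjusted p = 0.0304, edgeR), a call lost with no filter (0.0689). In the LRIG list 0 of 7 genes were called in any of the treatment comparisons by edgeR or by DESeq2. Over both fractions 1 of the 7 had an unadjusted p under 0.05, beside 20.7% of all genes.

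The genes whose levels followed each member most closely over the 16 libraries were looked up among about 9193 protein-coding genes whose counts averaged 50 or more, by Pearson's r of log2 CPM. These r values describe 16 libraries that share mice and fall into 2 fractions, and carry no test. Cd34 was closest to Ttr (0.990), Mpc1 (0.987) and Sfrp1 (0.987). Ttr, which encodes transthyretin, had 4.52 CPM in untreated CD34- and 47.7 CPM in untreated CD34+ cells on average. Cd200 was closest to Samd5 (0.979), Pik3r1 (0.974) and Nfic (0.972). Lrig1 was closest to Brd7 (0.884), Mnat1 (0.875) and Topors (0.871), at a looser r than for the other members. Plet1 was closest to Cyp3a13 (0.991), Zfp408 (0.990) and Prl8a9 (0.989). As all 16 libraries chose these genes, their own differences are no separate result. Cd44 was closest to Nadk (0.957), Hspa5 (0.953) and Mid1ip1 (0.936), and Ly6a to S100a9 (0.967), Ass1 (0.966) and Sprr2d (0.961). S100a9 and Sprr2d are an antimicrobial and a cornified envelope gene of keratinocytes.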

How the data were processed

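Total RNA of sorted organoid cells was made into barcoded 3′ end libraries with UMIs. The authors deposited 1 table of UMI counts per gene identifier (32989 rows, 16 libraries), not normalized; per the labels, FastQC 0.11.7, kallisto 0.45.0, bedtools and DESeq2 were used with mm10. The annotation release and use of strand are not given in the sources used here. Empty cells (156050) were read as 0. Names and coordinates are from GENCODE vM21 (same build), in which 62 identifiers were absent. Genes averaging 5 or more counts were fitted with edgeR 4.0.16 (TMM, quasi-likelihood, all 4 groups in 1 fit, adjusted p under 0.05); intervals are 95%. The step was tested on simulated data. DESeq2 1.42.0, other scalings and filters, thinning, a mouse block and leaving out libraries or mice were alternatives. By the labels the replicate number is the mouse, so it pairs samples; same-mouse deviations correlated at 0.013 on average (-0.069 to 0.086, 24 pairs). CPM intervals of single libraries cover counting error only. The members and lists were chosen with earlier results of these data known. Beside the members, the text names from each list up to 2 called genes a direction in the untreated fractions. Any called in a treatment test (up to 2 a direction) and the 3 most alike genes per member, unnamed models left out, are also named. For the lists of cell type markers, calls between the fractions are not given. Krt6a, Itga6, Sbsn and the members of the fibroblast, endothelial and melanocyte lists were named after their values were seen.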

Additional observations from a re-analysis of the deposited data

Results flagged for a closer look

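Each of the 24 combinations of a member and a group was checked for a library far from its 3 companions, which chance alone shows in about 1 in 20 groups. Cd200 showed it in 2 groups. In N1-AcSpd CD34- cells mouse 2 stood at 0.851 CPM while the others lay between 0.287 and 0.371 CPM. In untreated CD34+ cells mouse 3 stood at 4.23 CPM while the others lay between 5.85 and 6.14 CPM. Without the first of these libraries the change of Cd200 over both fractions was -1.19 (adjusted p = 0.00915, edgeR), and without the second -0.99 (adjusted p = 0.0356), against -0.93 with all libraries.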

How the results depend on the processing

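Of 992 recomputed fold changes of the members 929 kept their direction and their side of the threshold, 41 lost and 2 gained a call, and 20 changed sign, all of the last near 0. In untreated organoids 6 members were called between the fractions, or 5, without Lrig1, with only those groups in the fit and in 6 of 20 leave-out fits. Counts moved by over 1.5 times in 2 comparisons. In CD34- cells the treatment count went from 0 to 1, Plet1, with the mouse as a replicate block and with DESeq2. Averaged over both fractions it went from 2 to 0 with no filter and to 1 with thinned libraries, and ran from 0 to 2 over the leave-out fits. The block changed no other member's call. The signs that changed were of Lrig1 in CD34- cells (0.00 with library totals and 0.00 with the block, -0.12 to 0.08 over leave-out fits) and of the Cd34 change between fractions (-0.08 thinned, -0.04 to 0.16). Leave-out ranges that crossed 0 were, for treatment in CD34- cells, -0.03 to 0.10 for Cd34, -0.02 to 0.21 for Cd44 and -0.11 to 0.00 for Ly6a; in CD34+ cells -0.01 to 0.19 for Cd34; over both fractions -0.01 to 0.07 for Ly6a; and for the change between fractions -0.18 to 0.07 for Cd44. Over all genes the treatment calls in CD34- cells numbered 117, or 35 with no filter, 349 with the block, 0 with only the groups compared, 48 thinned, 558 with DESeq2 and from 4 to 157 over the leave-out fits. In CD34+ cells they numbered 62, or 35, 152 and 3 under the first 3 of these, 423 with DESeq2 and from 3 to 73. Over both fractions they numbered 925, or 445 with no filter, 1551 with the block, 1585 with DESeq2 and from 175 to 1062; leave-out fits gave 0 to 11 calls for the change between fractions. The causes were not tested. A fit with no filter adjusts over more genes, and a leave-out fit has fewer samples. Cd200 and Lrig1 rested on 7 to 120 UMIs a library, and the part of such low counts in their results was not tested.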
